A study of Sus scrofa with 2 samples.

Results

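TP63 basal nuclei of newborn piglet olfactory mucosa were picked by their transcripts from single-nucleus RNA sequencing of a CFTR knockout and a wild type library. A nucleus was taken when it had at least 500 detected genes, at least 1 unique molecular identifier (UMI, 1 captured transcript) of TP63, UMIs of at least 2 of the 7 genes KRT5, KRT14, COL17A1, NRCAM, CCDC3, LAMA3 and CYP24A1, and UMIs of at most 1 of the 5 genes TACR1, CAPN13, COL28A1, PADI1 and SPDEF. This gave 248 of 10769 barcodes, with 119 of 6054 in the knockout and 129 of 4715 in the wild type library. The tissue of both groups was olfactory neuroepithelium of newborn piglets, frozen in liquid nitrogen, cut in a cryostat and ground in a citric acid buffer to release nuclei for droplet capture by 10x Genomics chemistry. The knockout library is labelled as from CFTR knock out piglet tissue, CFTR being the epithelial anion channel that is defective in cystic fibrosis, and was set against a library of wild type piglet tissue; how many piglets each holds is not stated. The study asked how smell is lost in cystic fibrosis, and its title points to the proliferation of progenitor cells. Each genotype had 1 library, so genotype, animal and library cannot be told apart and no difference was tested.

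TP63 is the transcription factor that marks the basal cells of stratified and pseudostratified epithelia. In the olfactory epithelium these are the horizontal basal cells, flat cells on the basement membrane that stay quiescent in the mouse while TP63 is present and give rise to neurons and support cells after injury. Basal cells of the neighbouring airway epithelium also carry TP63, KRT5 and KRT14 and renew secretory and ciliated cells, so TP63 alone does not tell these kinds apart.

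Over the members of a library, 373726 UMIs were counted in knockout and 534447 in wild type nuclei. A member held a median of 2129 UMIs and 1476 genes in the knockout and 3065 UMIs and 1838 genes in the wild type, close to the other nuclei of the same libraries with medians of 2426 and 3123.5 UMIs. Levels are given as CPM, UMIs of a gene per 1000000 UMIs summed over the members of a library, with log2 ratios of knockout over wild type. All 95% intervals (exact Poisson for levels, Clopper-Pearson for shares, conditional binomial for ratios of levels, log-normal for ratios of shares) cover counting error only. For comparison, nuclei without TP63 are called glial or mature neuron with at least 3 of 6 markers of that type, fibroblast with at least 4 of 6 and neuronal precursor with at least 2 of 6. Nuclei that met the markers of more than 1 comparison type were left out of these sets. Barcodes found in both libraries numbered 8, of which 1 was a member. Mitochondrially encoded transcripts took 1.36% of the UMIs of knockout members and 3.59% of those of wild type members, against 1.26% and 2.68% in the other nuclei of these libraries.

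The members were 2.24% (1.86% to 2.68%) of the 5305 knockout nuclei with 500 or more genes and 2.85% (2.38% to 3.38%) of the 4529 wild type nuclei. The log2 ratio of these shares was -0.34 with an interval of -0.70 to 0.010, so a difference was not detectable at this depth. Nuclei with any TP63 UMI made up 4.75% (252 nuclei) of the knockout and 4.70% (213 nuclei) of the wild type library, and members made up 47.2% of those in the knockout library and 60.6% of those in the wild type library. With at least 2 TP63 UMIs per nucleus the log2 ratio was -0.52 (-0.93 to -0.12), with at least 3 other basal genes -0.56 (-0.97 to -0.15) and with no exclusion gene -0.43 (-0.86 to -0.0011), intervals that no longer include 0. With the rule applied after thinning each nucleus to 1000 UMIs it was -0.40 (-0.86 to 0.067). With a minimum of 1000 detected genes it was -0.27 (-0.65 to 0.10), and both of these intervals include 0. The part of the unlike depth of the libraries in these ratios was not tested.

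The values that chose the members are a description. A member held a median of 3 TP63 UMIs if knockout and 5 if wild type, with 44 and 33 in the richest nuclei. Just inside the thresholds lay 31 knockout and 21 wild type members with a single TP63 UMI, 35 and 23 with only 2 of the basal genes, and 40 and 38 with 1 exclusion gene. Just outside lay 31 knockout and 23 wild type nuclei with TP63 and 1 basal gene, and 22 and 16 with TP63, 2 or more basal genes and 2 exclusion genes. A further 672 knockout and 513 wild type nuclei met the rule but for TP63. At least 1 TP63 UMI was also found in 2 of 66 knockout and 3 of 104 wild type nuclei with glial markers (3.03% and 2.88%). The shares were 4.85% and 4.35% of those with fibroblast markers. TP63 is not a marker of these types. Nuclei that also met the markers of another type were kept in these counts, and the part of background in these UMIs was not tested.

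Genes outside the rule that were most raised in members are described next. They were picked by that same contrast, so they do not check the basal label. Of the 7853 genes with at least 20 UMIs over the members, 310 (3.95%) were at least 2-fold higher in members than in the other nuclei in both libraries, and 273 (3.48%) were at least 2-fold lower in both. These are counts of a selected population and carry no test. Highest among those outside the rule came CXCL14, a chemokine of epithelia, with 110 CPM in knockout and 305 in wild type members, against 6.18 and 16.5 in the other nuclei. DLK2, a basal cell gene related to the Notch ligand family, had 139 in knockout and 52.4 in wild type members, against 7.89 and 3.10 in the other nuclei. MET, the receptor of hepatocyte growth factor, had 348 and 451, against 37.5 and 33.6. Others of the 25 were the ectodysplasin receptor adaptor EDARADD, the tensin TNS4, the giant cadherin FAT2, the class III myosin MYO3A, the cytokine IL1A, the integrin subunit ITGA3, the ephrin receptor EPHA6, the glutamine transporter SLC1A5, the guidance molecule RGMA and the latent TGF beta binding protein LTBP1. After thinning to 1000 UMIs per nucleus MET was seen in 34.5% of knockout and 38.4% of wild type members and in 0 of 57 and 0 of 80 glial nuclei. The basement membrane collagen COL15A1, also among the 25, was instead seen in fewer members (10.3% and 19.2%) than glial nuclei (24.6% and 37.5%). SEMA5A, a semaphorin, was the most widely detected of them, with 990 and 947 CPM in knockout and wild type members, against 161 and 162 in the other nuclei, and with a UMI in 80.7% and 81.4% of members. After thinning it was seen in 61.2% of knockout and 58.4% of wild type members, in 7.02% and 3.75% of glial and in 24.8% and 27.5% of fibroblast nuclei; the median depths were 3177 and 2648 UMIs in glial and 2309.5 and 2487 in fibroblast nuclei.

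**Figure D1:**
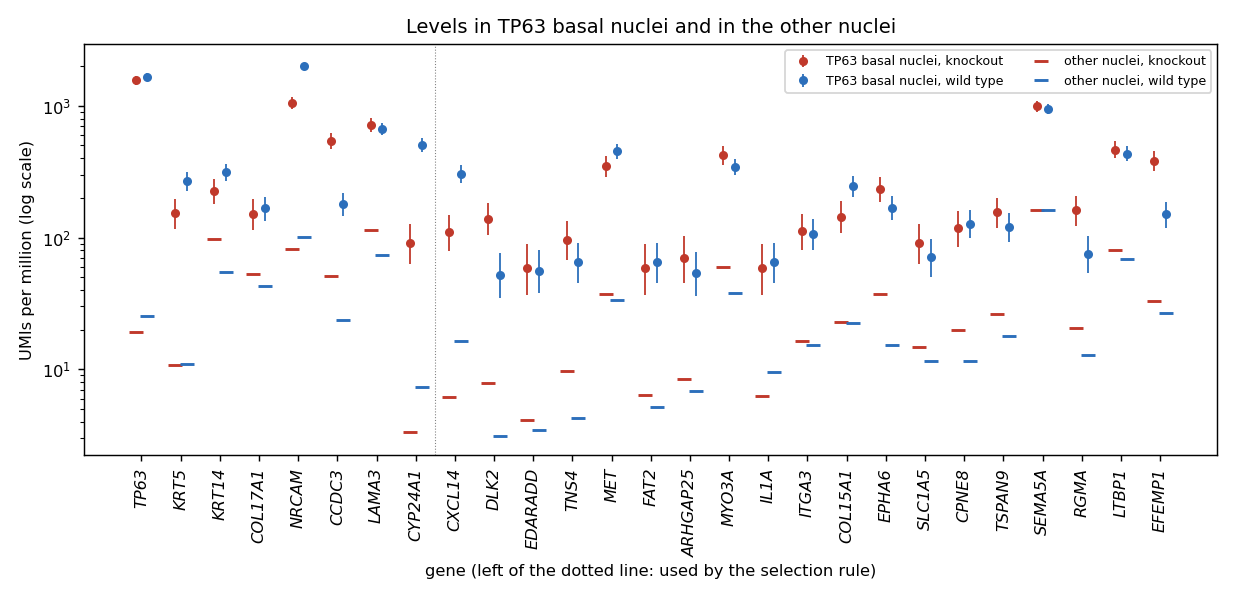
Levels in CPM (log scale) of the genes of the selection rule (left of the dotted line) and of the other genes most raised in members. Points are TP63 basal nuclei of the knockout (red, left of each pair) and wild type library (blue) with exact Poisson 95% intervals, and dashes are the other nuclei of the same libraries; TP63 stands at 1557 and 1665 in members against 19.2 and 25.4 in the other nuclei.

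Hemidesmosome and basement membrane genes, which tie basal cells to the matrix, were high in members: apart from LAMA3 and COL17A1 of the rule, 7 of the 17 genes with enough UMIs were at least 2-fold higher in members than in other nuclei in both libraries and 0 lower, against 3.95% and 3.48% of all genes. Among them was COL4A5, a basement membrane collagen chain, with 498 and 309 CPM in knockout and wild type members against 146 and 77.2 elsewhere. COL7A1, the anchoring fibril collagen, had 34.8 and 16.8 against 3.34 and 2.21. Of 11 inflammatory and wound genes, 6 were past 2-fold over the other nuclei in both libraries and 0 below. This list includes the NF-kB subunit NFKB1 at 270 and 206 CPM in knockout and wild type members against 72.0 and 52.2, and the interleukin 1 receptor IL1R1 at 214 and 112 against 75.1 and 35.3. EGFR, a growth factor receptor of epithelial basal cells, had 720 and 737 against 192 and 117.

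Some basal markers were scarce. KRT15 had 3 UMIs in knockout and 0 in wild type members, the desmoglein DSG3 had 4 and 5 UMIs, and KRT4, a suprabasal keratin, had 0 in both. The list of suprabasal or squamous genes summed to 155 CPM in knockout and 73.0 in wild type members, against 115 and 61.4 in the other nuclei. The basal list summed to 4806 and 6109 in members. It includes TP63 and the basal genes of the rule, so its height follows from the selection and does not check the basal label. NEUROG1, which drives neuronal differentiation of globose basal precursors, had no UMI in members of either library. FOXI1 and ASCL3, transcription factors of ionocytes, also had none. At the floor of 3 UMIs set for a count of 0, these genes could reach 8.03 CPM in knockout and 5.61 CPM in wild type members.

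Clustering their transcripts without CFTR and the mitochondrial transcripts gave 5 sub-clusters, numbered here because their leading genes rather than a fixed name define them. Sub-cluster 1 (34 knockout and 75 wild type nuclei) was led by CA12, a carbonic anhydrase, the water channel AQP4 and the matrix protein VIT. Sub-cluster 2 (63 and 16) was led by the membrane protease TMPRSS4, the forkhead factor FOXP2 and the epithelial ETS factor EHF. The remaining nuclei fell into sub-cluster 3 (12 and 14, led by WDR49, BTG4 and ADGRF5), sub-cluster 4 (8 and 11, with FSTL5 among its leading genes) and sub-cluster 5 (2 and 13, led by SVOPL and ATP13A5). Since genes that lead the sub-clusters also differ between the libraries, their sizes are given as a description only. At resolution 0.8 sub-cluster 1 separated further into a group of 1 knockout and 66 wild type nuclei and a group of 33 and 9, beside a group of 63 and 16, and resolution 1 gave groups of 1 and 65, 36 and 7, 32 and 9, 28 and 9, 12 and 14, 8 and 11 and 2 and 14.

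**Figure D2:**
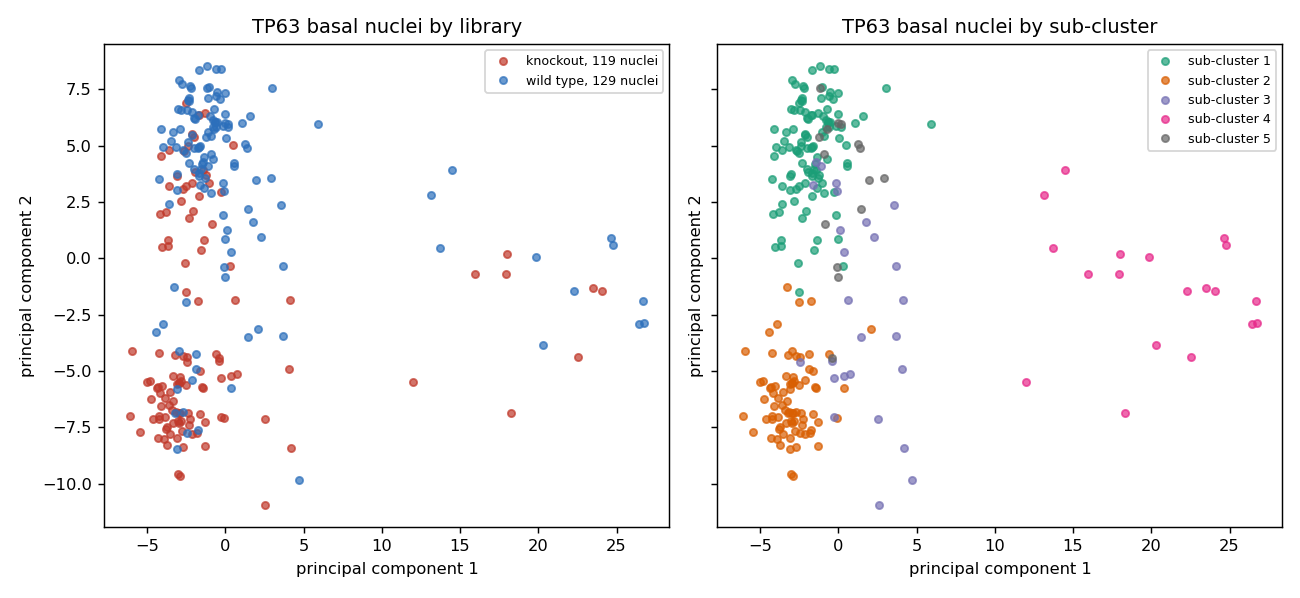
Principal components 1 and 2 of the 248 members, coloured by library (left) and by sub-cluster (right). Sub-cluster 1 holds 34 knockout and 75 wild type nuclei and sub-cluster 2 holds 63 and 16.

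The rule genes TP63 and KRT5, which are a description here, had UMIs in sub-clusters 1 and 2 of both libraries. TP63 stood at 2788 CPM in knockout and 2636 in wild type nuclei of sub-cluster 1, and at 1903 and 1935 in sub-cluster 2. KRT5 was at 208 and 451 in sub-cluster 1 and at 249 and 292 in sub-cluster 2. SEMA5A, outside the rule, stood at 1430 and 1446 in sub-cluster 1 and at 1440 and 1511 in sub-cluster 2.

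They differed in many other genes, within each library. NRCAM, a neural adhesion molecule, had 3570 CPM in knockout and 3521 in wild type nuclei of sub-cluster 1, against 332 and 530 in sub-cluster 2. CXCL14 had 416 and 553 in sub-cluster 1, where it was seen in 12 of 34 and 39 of 75 nuclei, and 2 UMIs in 63 knockout and 0 in 16 wild type nuclei of sub-cluster 2. In the other direction, EHF had 651 and 557 in sub-cluster 2, against 97.8 and 44.2 in sub-cluster 1. KCNMA1, the large-conductance potassium channel, had 1343 and 1087 in sub-cluster 2, against 183 and 79.6 in sub-cluster 1. The complement component C3 had 671 and 371 in sub-cluster 2, against 208 and 88.5 in sub-cluster 1. These genes took part in the clustering, so the contrast is a description of what divides the members. In single nuclei EHF and the rule gene CYP24A1, the enzyme that degrades vitamin D, were found together in 5 knockout and 7 wild type members. EHF alone was found in 44 and 18, CYP24A1 alone in 13 and 49, and neither in 57 and 55. The overlap of unrelated genes at these shares was not computed, so the counts do not show that EHF and CYP24A1 mark separate nuclei.

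**Figure D3:**
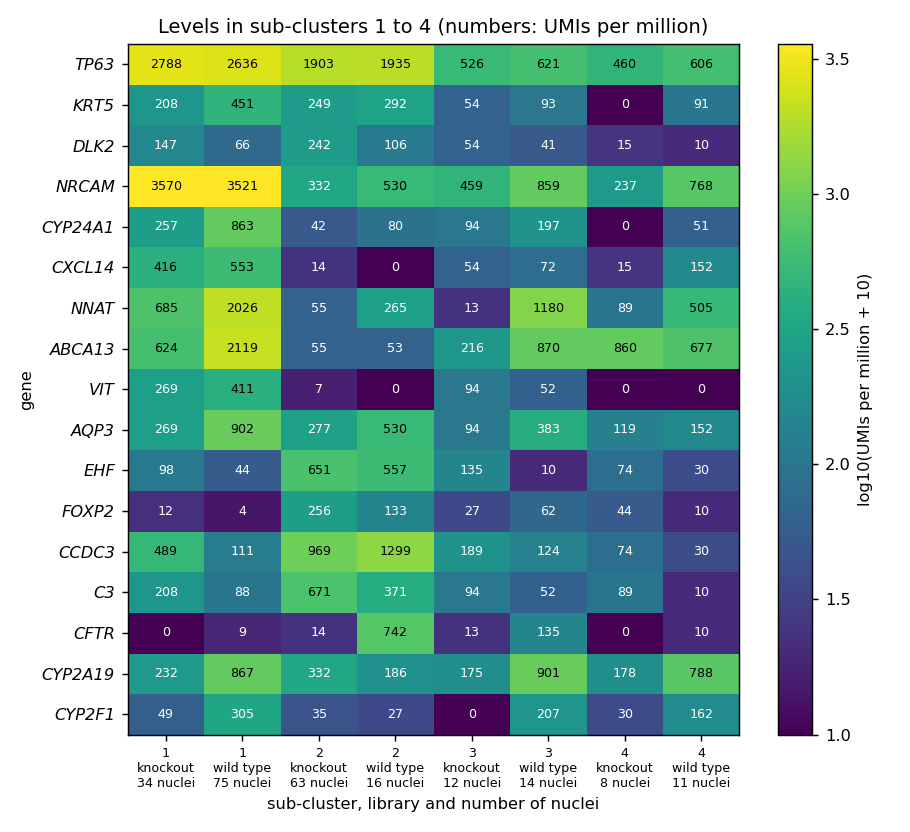
Levels in CPM of 17 genes in sub-clusters 1 to 4 of the members, knockout left of wild type in each pair, with the number of nuclei under each column; sub-cluster 5, with 2 knockout nuclei, is not drawn. NRCAM and CXCL14 are high in sub-cluster 1 of both libraries, and EHF, CCDC3 and C3 in sub-cluster 2 of both.

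Sub-clusters 3 to 5 carried markers of other cell types beside TP63. Ciliated cell genes summed to 5912 CPM in knockout and 2133 in wild type nuclei of sub-cluster 3, against 391 and 234 in sub-cluster 1. Endothelial genes summed to 1471 and 1128 in sub-cluster 3, against 110 and 48.7 in sub-cluster 1. Immature neuron genes summed to 3337 and 6105 in sub-cluster 4, and sustentacular genes, of the support cells, to 2524 and 8096 in sub-cluster 5. These nuclei were also deeper, with medians of 5835.5, 8124 and 5475 UMIs in sub-clusters 3, 4 and 5 against 2411 and 1860 in sub-clusters 1 and 2. Nuclei with the highest doublet scores made up 7 of 119 knockout and 12 of 129 wild type members, and 0 of them were in sub-clusters 1 and 2. Their part in the values of sub-clusters 3 to 5 was not tested.

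CFTR was low in knockout members, with 3 UMIs in 3 of 119 nuclei, against 56 UMIs in 19 of 129 wild type nuclei. This is 8.03 CPM (1.66 to 23.5) against 105 (79.2 to 136), a log2 ratio of -3.71 (-6.03 to -2.09). In the other nuclei it was 12.9 against 86.5 (log2 -2.74). The wild type share of members with a CFTR UMI, 14.7%, stood beside 1.22% in glial nuclei and 2.92% in fibroblast nuclei, at median depths of 3065, 2648 and 2487 UMIs, and after thinning it was 4.80% beside 1.25% and 1.34%. In all other wild type nuclei the unthinned share was 11.5%. The log2 ratio of wild type members over these nuclei was 0.28, so CFTR was not particular to members. The sources used here state neither the disrupted part of CFTR nor whether the UMIs lie within it, so UMIs outside it would not bear on the label.

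Within the wild type members CFTR was uneven. Sub-cluster 2 held 28 UMIs in 6 of 16 nuclei (742 CPM), while sub-cluster 1 held 2 UMIs in 2 of 75 nuclei (8.85 CPM). Sub-cluster 5 held 12 UMIs in 6 of 13 nuclei, sub-cluster 3 held 13 in 4 of 14 and sub-cluster 4 held 1. CFTR had been left out of the clustering. The 6 nuclei of sub-cluster 2 had 11, 7, 6, 2, 1 and 1 CFTR UMIs, so 3 nuclei carried most of the total. Of these 6 nuclei, 3 had no UMI of the 11 other genes of the ionocyte list and 1 had 3 or more of them. The list without CFTR summed to 187 CPM in knockout and 530 in wild type nuclei of sub-cluster 2, against 330 and 433 in sub-cluster 1. The part of ionocyte transcripts in these CFTR values was not tested. In the knockout, sub-cluster 2 held 2 CFTR UMIs in 63 nuclei, a log2 ratio of -5.74 (-8.86 to -3.76) to the wild type.

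Of the same 7853 genes, 554 (7.05%) were at least 2-fold higher in knockout members and 420 (5.35%) at least 2-fold lower, together 12.4%. The median log2 ratio of all these genes was 0.10 in members and 0.10 in the other nuclei. Scaling by TMM lowers every log2 ratio by 0.14 and turns the split to 390 higher and 563 lower, so small positive ratios have no firm sign. Of 117 genes named for this comparison or taken from the lists that were past 2-fold, 66 fell under 2-fold or changed sign in at least 1 alternative processing, 34 of them when the sub-clusters were given equal weight in both libraries (equal weight). Beside each ratio given for these genes stands the lowest such ratio in size or, where the sign changed, the ratio of changed sign. Since the libraries hold different numbers of nuclei of sub-clusters 1 and 2, ratios within these sub-clusters are given beside those over all members. They are a description where the gene took part in the clustering. Of the genes with 20 UMIs there, 6.98% of 3809 genes were past 2-fold higher and 10.4% lower in sub-cluster 1, and 18.9% higher and 6.98% lower of 2479 genes in sub-cluster 2. Over both sub-clusters together 7.92% of 5369 genes were higher and 6.85% lower. Counts of gene list members past 2-fold over all members are to be read beside the 7.05% and 5.35% of all genes. In these counts and medians the lists keep their genes of the rule unless stated.

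**Figure D4:**
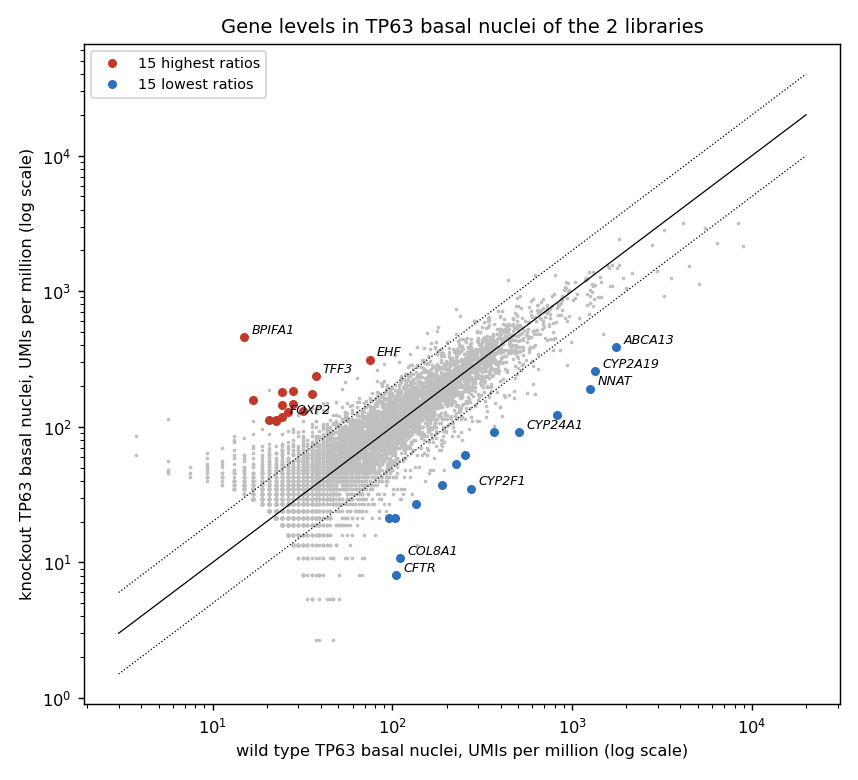
Levels of single genes in wild type (x axis) and knockout (y axis) members, in CPM on log scales; the solid line marks equal levels and the dotted lines 2-fold. Red and blue points are the 15 genes with the highest and the lowest ratio among those with at least 50 UMIs, led by BPIFA1 (458 against 15.0) and CFTR (8.03 against 105); genes at 0 in a library are not drawn.

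Several genes of lowest ratio were lower within sub-cluster 1 as well. Sub-cluster 1 itself separated at resolution 0.8 into groups of 1 knockout and 66 wild type nuclei and of 33 and 9. Ratios within it thus do not hold the mix of nuclei fixed, and the part of this mix was not tested. NNAT, an imprinted membrane proteolipid, had 71 UMIs in knockout and 672 in wild type members, or 190 against 1257 CPM (log2 -2.73, -3.10 to -2.37), while in the other nuclei its log2 ratio was -0.41. Within sub-cluster 1 it had 685 against 2026 CPM (log2 -1.57, -1.99 to -1.16). CYP24A1, a gene of the rule, had 91.0 against 507 in all members (log2 -2.48). Within sub-cluster 1 it had 257 against 863 (log2 -1.75, -2.47 to -1.10). Since a CYP24A1 UMI helped a nucleus to become a member, its ratios are a description. ABCA13, a large ABC transporter, had 385 against 1761 in all members (log2 -2.19), 624 against 2119 within sub-cluster 1 (log2 -1.76, -2.21 to -1.35), and a log2 ratio of -0.07 in the other nuclei. ABCA13 was higher still in sub-cluster 5 (1851 against 4115) and in sustentacular nuclei (5784 and 5715), and the part of sustentacular transcripts, which summed to 1078 in knockout and 2500 in wild type members, in its ratio was not tested. For each of these 3 genes the ratio within sub-cluster 1 was nearer to 0 than over all members.

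The water and glycerol channel AQP3 had 206 CPM in knockout against 608 in wild type members (log2 -1.56, -1.94 to -1.20), and 269 against 902 within sub-cluster 1, with a log2 ratio of -0.07 in the other nuclei. The background potassium channel KCNK2 had 61.5 against 253 (log2 -2.04) and DPP10, which modulates voltage-gated potassium channels, had 91.0 against 369 (log2 -2.02, but -0.78 with equal weight). The 15 genes with the lowest ratios also include ND3, a mitochondrially encoded subunit of respiratory complex I, at log2 -2.74. Of the 13 mitochondrial transcripts, 11 were past 2-fold lower in knockout members, with a median of -1.49, and their median was -1.20 in the other nuclei.

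CYP2F1 and CYP2A19, cytochrome P450 enzymes that are abundant in sustentacular cells, had 34.8 against 273 and 257 against 1343 CPM in knockout and wild type members (log2 -2.97 and -2.39), and log2 ratios of -2.23 and -1.24 in the other nuclei. A CYP2A19 UMI was seen in 49.6% of knockout and 75.2% of wild type members, beside 49.1% and 54.9% of glial nuclei. After thinning it was seen in 25.0% and 44.8% of members, beside 17.5% and 33.8% of glial nuclei. Sustentacular genes summed to 1078 in knockout and 2500 in wild type members, and 38 and 68 members had UMIs of 3 or more of them, which moves with these ratios; their part was not tested. The mitochondrial sterol hydroxylase CYP27A1 had a log2 ratio of -2.33 and the organic anion transporter SLCO1A2 one of -2.08, which was 0.22 in sub-clusters 1 and 2 alone. COL8A1 (log2 -3.37), ST6GALNAC5 (log2 -2.33, but 1.72 with at least 3 basal genes) and the ubiquitin ligase gene MARCHF1 (log2 -2.27, but -0.29 in sub-clusters 1 and 2 alone) had UMIs in only 9, 7 and 11 wild type members, and 56 of the 59 wild type COL8A1 UMIs lay in 6 nuclei of sub-cluster 3.

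The highest ratio among genes with at least 50 UMIs was that of BPIFA1, a secreted protein of airway and glands, with 171 UMIs in knockout and 8 in wild type members (458 against 15.0 CPM, log2 4.93). It was about as high in knockout nuclei of other types, with 449 in glial, 415 in mature neuron and 509 in fibroblast nuclei. A BPIFA1 UMI was found in 74.8% of knockout members, 80.7% of knockout glial nuclei and 75.0% of fibroblast nuclei. The median depths were 2129, 3177 and 2309.5 UMIs. In the other nuclei its log2 ratio was 4.35, so neither its level nor its ratio was particular to members. The trefoil peptide TFF3 (log2 2.65) had 235 CPM in knockout members, 200 in glial and 259 in fibroblast nuclei. The galectin LGALS3 (log2 2.90) had 182, beside 75.7 in glial and 210 in fibroblast nuclei, and the dynein light chain gene TCTEX1D4 (log2 3.23) was seen in 34.5% of knockout members beside 26.3% and 39.9% of these nuclei. Respiratory secretory genes, BPIFA1 and TFF3 included, summed to 1763 CPM in knockout and 619 in wild type members, and 80 and 26 members had UMIs of 3 or more of them. The part of free RNA in the ratios of BPIFA1 and of the other genes was not tested.

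EHF, an ETS factor of airway and glandular epithelium, had 117 UMIs in 49 knockout and 40 UMIs in 25 wild type members (313 against 74.8 CPM, log2 2.06, 1.54 to 2.62), and a log2 ratio of 0.87 in the other nuclei. Its share of nuclei after thinning was 22.4% in knockout and 12.0% in wild type members, beside 1.75% and 1.25% in glial nuclei. Within sub-cluster 2 the levels were 651 against 557 (log2 0.23, -0.47 to 0.98), an interval that includes 0. EHF, FOXP2, TMPRSS4 and CCDC3 are leading genes of sub-cluster 2, which holds 16 wild type nuclei. Nuclei were thus grouped in part by these genes, so ratios within it are a description and cannot show whether the libraries are alike. FOXP2 had 118 against 24.3 (log2 2.28) and the protease TMPRSS4 had 110 against 22.4 (log2 2.29). With equal weight EHF was at 0.44, TMPRSS4 at 0.72, KCNMA1 at 0.80 and CCDC3 at 0.43. Within sub-cluster 2 the log2 ratios of FOXP2 and TMPRSS4 were 0.95 (-0.40 to 2.66) and -0.35 (-1.37 to 0.78), also with intervals that include 0. KCNMA1, which also took part in the clustering, had 736 against 226 in all members (log2 1.70) and a log2 ratio of 0.31 (-0.19 to 0.83) within sub-cluster 2. CCDC3, a gene of the rule, had 541 against 180 in all members (log2 1.59), and it stood at 489 against 111 in sub-cluster 1 (log2 2.14) and at 969 against 1299 in sub-cluster 2 (log2 -0.42, -0.90 to 0.08).

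Among the rest of the 15 highest, the axonemal dynein DNAH10 (log2 2.45, but 0.98 with no exclusion gene), the centrin CETN2 (log2 2.04) and ANKFN1 (log2 2.57) had ratios of 1.33, 2.17 and 3.32 in the other nuclei. DNAH10 was seen in 15.1% of knockout members, 15.8% of glial and 20.8% of fibroblast nuclei, and CETN2 in 29.4%, 26.3% and 29.2%. After thinning the shares were 5.17%, 7.02% and 9.32% for DNAH10 and 11.2%, 5.26% and 13.7% for CETN2. Of the 42 knockout UMIs of DNAH10, 23 lay in 6 nuclei of sub-cluster 3 and 11 in 5 nuclei of sub-cluster 4. The part of background in the ratios of DNAH10 and CETN2 was not tested. The ciliated list had 7 of 12 genes past 2-fold higher and 0 lower, against 7.05% and 5.35% of all genes tested. That list summed to 1878 CPM in knockout and 965 in wild type members, and its part in the ratio of ANKFN1 was not tested. ANKFN1 had UMIs in 8 knockout and 2 wild type members, and 51 of its 54 knockout UMIs lay in 5 nuclei of sub-cluster 3. L3MBTL4 (log2 2.72), the sialyltransferase ST8SIA1 (log2 2.32), the splicing factor RBFOX1 (log2 2.29), CLEC3B (log2 2.39) and GPR155 (log2 2.29, but -0.40 among members with no exclusion gene) completed the 15.

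The basal marker list, 8 of whose 13 genes with enough UMIs are of the rule, had a median log2 ratio of -0.48, with 9 genes below 0, 3 past 2-fold higher and 2 lower. The hemidesmosome list had a median log2 ratio of -0.03, with 2 of 19 genes past 2-fold higher and 2 lower, against 7.05% and 5.35% of all genes tested. FRAS1, an extracellular matrix protein of the basement membrane, had 281 CPM in knockout against 604 in wild type members (log2 -1.11, -1.44 to -0.78, but -0.65 with equal weight) and a log2 ratio of -0.98 (-1.49 to -0.51) within sub-cluster 1. The integrin subunit ITGB4 was higher, at 64.2 against 31.8 (log2 1.01, 0.057 to 2.0), but at log2 -0.14 with the sub-clusters given equal weight in both libraries. Of 5 keratins 0 passed 2-fold, with the rule genes KRT5 at 153 against 269 (log2 -0.82) and KRT14 at 225 against 312 (log2 -0.48). In the desmosome list, with a median of 0.04, DSC3 had 3 UMIs in knockout and 36 in wild type members (log2 -3.07, -5.41 to -1.41) and the plakophilin PKP1 had 15 and 5 UMIs (log2 2.10, 0.57 to 3.92). All other 10 desmosome and cadherin genes lay within 2-fold.

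Of 9 basal and airway factors 3 were past 2-fold higher and 2 lower, against 7.05% and 5.35% of all genes tested, with a median of -0.10. Beside EHF the higher ones were KLF5, a factor of epithelial progenitors, at 185 against 91.7 CPM (log2 1.01, but 0.73 with equal weight), and FOXA1, a forkhead factor of airway epithelium, with 21 against 3 UMIs (log2 3.32, 1.58 to 5.71, and 3.31 in the other nuclei). SOX2, a progenitor factor of olfactory and airway epithelium, had 40.1 against 87.9 (log2 -1.13, but -0.082 with no exclusion gene), and ELF5 26.8 against 73.0 (log2 -1.45, but 0.81 in sub-clusters 1 and 2 alone). Of 12 factors of the olfactory region 0 passed 2-fold, with a median of -0.18. EYA1, a cofactor of the sensory placodes, was the most abundant at 3176 against 4133, and MEIS2 had 313 against 550 (log2 -0.81, -1.13 to -0.50).

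Of 10 olfactory neurogenic genes, 10 were below 0 with a median of -0.55 (-0.68 in the other nuclei), and 2 were past 2-fold lower. These were HES6, with 5 UMIs in knockout and 26 in wild type members (log2 -1.86), and TEX15 with 11 and 59 (log2 -1.91, but -0.11 with no exclusion gene). Immature neuron genes also summed lower, to 1030 in knockout and 1811 in wild type members, with 3 or more of them in 15 and 48 members, and their part in these ratios was not tested. In the list of axon guidance and adhesion genes 1 of 21 was past 2-fold higher and 4 lower, against 7.05% and 5.35% of all genes. The median was -0.63 (-0.35 in the other nuclei), and -0.54 over 20 genes without NRCAM of the rule. NRCAM had 1052 against 2000 in all members (log2 -0.93), yet 3570 against 3521 within sub-cluster 1 (log2 0.02, -0.18 to 0.22). The ephrin receptor EPHA4 (log2 -1.55, but -0.46 with equal weight), the plexin PLXNA2 (log2 -1.27, but -0.72 with no exclusion gene) and the netrin receptor UNC5C (log2 -1.19, but -0.87 as a mean over nuclei) were past 2-fold lower. SEMA3C, a secreted semaphorin, was at log2 1.17 (0.34 with no exclusion gene).

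**Figure D5:**
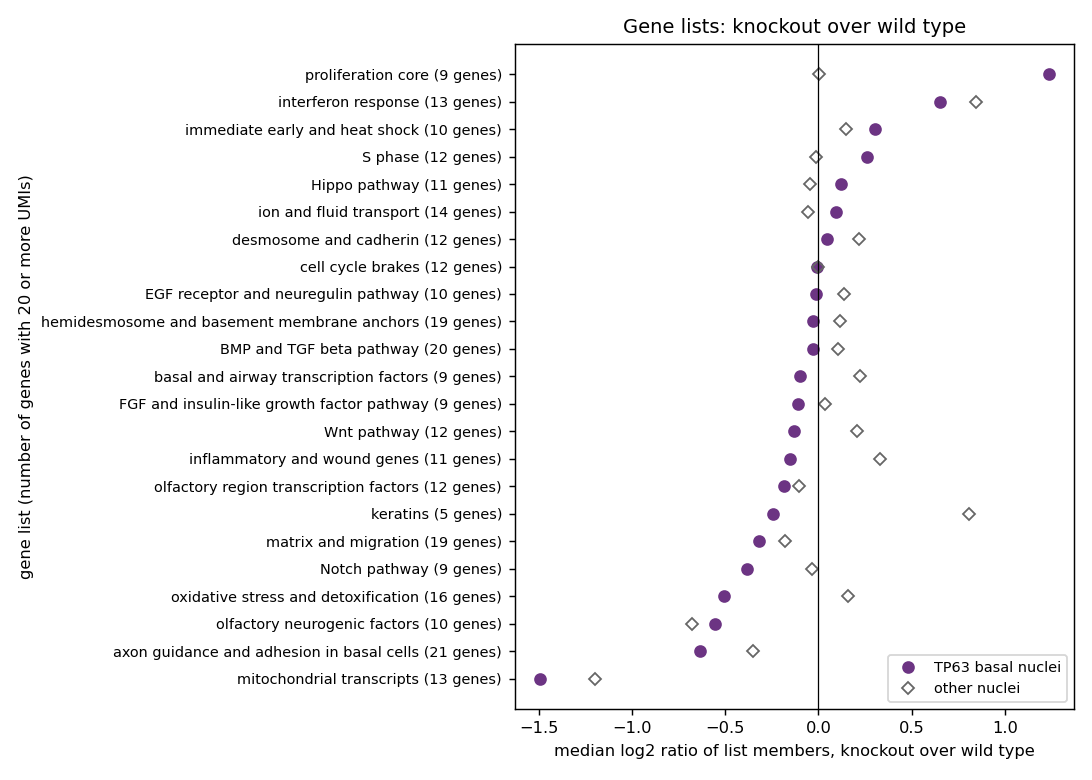
Median log2 ratio of knockout over wild type of the gene lists in members (filled circles) and, for the same genes, in the other nuclei (open diamonds), with the number of genes with 20 or more UMIs in brackets. The proliferation core list stands at 1.24 in members and 0.00 in the other nuclei, and mitochondrial transcripts at -1.49 and -1.20.

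The signalling lists had medians of -0.38 for 9 Notch genes (-0.03 in the other nuclei), -0.13 for 12 Wnt genes, -0.01 for 10 genes of the EGF receptor and neuregulin pathway, -0.11 for 9 FGF and insulin-like growth factor genes, -0.03 for 20 BMP and TGF beta genes and 0.12 for 11 Hippo genes. In the Notch list the effector HEY2 had 80.3 CPM in knockout against 245 in wild type members (log2 -1.61, -2.23 to -1.03) and the ligand JAG2 24.1 against 58.0 (log2 -1.27), while the ligand JAG1 was at log2 0.85. In sub-clusters 1 and 2 together the Notch median was -0.79, with 3 of 7 genes past 2-fold lower and 1 higher, while it was -0.50 within sub-cluster 1 and -0.18 within sub-cluster 2. Within sub-cluster 1 HEY2 was at log2 -0.50 with an interval of -1.26 to 0.21. The receptor EGFR was level at 720 against 737 (log2 -0.03, -0.26 to 0.19), while its ligand TGFA had 14 against 41 UMIs (log2 -1.03, but -0.22 with equal weight) and the feedback phosphatase DUSP6 3 against 17 (log2 -1.99, -4.40 to -0.20). The BMP mediator SMAD9 had 5 against 31 UMIs (log2 -2.12), and 0 of the Wnt or FGF genes passed 2-fold.

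Of 16 oxidative stress and detoxification genes 2 were past 2-fold higher and 4 lower, against 7.05% and 5.35% of all genes tested. Their median was -0.50, beside 0.16 for the same genes in the other nuclei. Without CYP24A1 of the rule, 2 of 15 were past 2-fold higher and 3 lower, with a median of -0.48. SULT1E1, a sulfotransferase that inactivates estrogens, was the most abundant, with 1308 CPM in knockout against 625 in wild type members (log2 1.07, 0.86 to 1.27, but 0.85 with equal weight) and a log2 ratio of -0.25 in the other nuclei. It was at log2 0.94 (0.61 to 1.27) within sub-cluster 1 and 0.94 (0.46 to 1.45) within sub-cluster 2, close to the ratio over all members. ALDH1A1, which makes retinoic acid, was at log2 1.70, and the cystine transporter SLC7A11 had 16 against 67 UMIs (log2 -1.55, but -0.94 with no exclusion gene). Of 14 ion and fluid transport genes 3 were past 2-fold higher and 3 lower, against the same shares of all genes, with a median of 0.09. Beside KCNMA1 the sodium channel subunit SCNN1B (74.9 against 28.1, log2 1.42) and the potassium channel KCNQ1 (log2 1.25, but 0.79 with equal weight) were higher, and beside CFTR and AQP3 the water channel AQP5 was lower, with 4 against 32 UMIs (log2 -2.48). The alpha subunit of the sodium channel, SCNN1A, was at log2 0.74 over all members, at 1.75 (0.98 to 2.52) in sub-cluster 1 and at -0.03 (-1.68 to 2.02) in sub-cluster 2.

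Interferon response genes had a median log2 ratio of 0.65 over 13 genes, beside 0.84 for the same genes in the other nuclei. Only MX2, with 17 UMIs in 6 knockout and 7 UMIs in 2 wild type members, was past 2-fold (log2 1.80), and it was at -0.83 among members with no exclusion gene. Of 11 inflammatory and wound genes, CXCL14 at log2 -1.48 and the stromal protease MMP3, with 3 against 22 UMIs (log2 -2.36, -4.74 to -0.62, but -0.058 with equal weight), were lower and 0 higher. CXCL14 was at log2 -0.92 with no exclusion gene and at -0.41 (-1.0 to 0.15) within sub-cluster 1. The antimicrobial protein LCN2 had 136 against 239.5 CPM (log2 -0.81) and was at log2 -1.38 (-2.50 to -0.42) within sub-cluster 1. Of 19 matrix and migration genes 0 were higher and 3 lower, among them the thrombospondin THBS1 (log2 -1.28) and the gelatinase MMP2 (log2 -1.22, but 0.37 with equal weight of the sub-clusters). FOS, an immediate early factor, was at log2 1.10 (-0.03 to 2.29, and 0.81 in sub-clusters 1 and 2 alone) with 18 against 12 UMIs, in a list with a median of 0.30 over 10 genes.

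The proliferation core list had 9 of its 25 listed genes with enough UMIs. Their median log2 ratio was 1.24, beside 0.00 for the same genes in the other nuclei. Of the 9 genes, 5 were past 2-fold higher and 0 lower, against 7.05% and 5.35% of all genes tested. TOP2A, the topoisomerase of dividing cells, had 25 UMIs in 9 knockout and 7 UMIs in 6 wild type members (log2 2.35, 1.10 to 3.81), and 16 of its 25 knockout UMIs lay in 4 nuclei of sub-cluster 2. The condensin subunit SMC4 was at log2 1.28 (0.63 with equal weight), the kinesins KIF11 and KIF23 at 1.41 (0.88 with equal weight) and 1.38 and the formin DIAPH3 at 1.24. Among members with no exclusion gene KIF23 was at -0.61 and DIAPH3 at -0.023. In all members PRC1, a spindle protein, was at -0.63. With the sub-clusters given equal weight in both libraries the median of the list was 0.63. S phase genes had a median of 0.26 over 12 genes, with the ribonucleotide reductase subunit RRM1 at 1.08 (0.28 with equal weight) and ATAD2 at -1.08 (-0.63 with no exclusion gene). Of 12 cell cycle brakes 1 was past 2-fold lower and 0 higher, CDKN1B with 8 against 24 UMIs (log2 -1.07, -2.43 to 0.13, and -0.023 with no exclusion gene).

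A nucleus was called proliferating when it had UMIs of at least 2 genes of the core list after thinning to 1000 UMIs. The share was 6.03% (2.46% to 12.0%, 7 of 116) of knockout members and 3.20% (0.879% to 7.99%, 4 of 125) of wild type members, a log2 ratio of 0.92 (-0.82 to 2.65), so a difference was not detectable at this depth. Without thinning it was 23.5% and 27.1%, a log2 ratio of -0.21. Mature neuron nuclei, which do not divide, gave 4.01% in knockout and 3.07% in wild type tissue at median depths of 2996 and 4062.5 UMIs, and the intervals of the members of both libraries include the share of neurons of their own library. Nuclei with neuronal precursor markers, in contrast, gave 7 of 14 in the knockout and 29 of 37 in the wild type. Nuclei with the markers of both mature neurons and precursors are in neither set. In sub-cluster 1 the count was 0 of 33 knockout and 0 of 72 wild type nuclei, which allows shares of up to 10.6% and 4.99%. In sub-cluster 2 it was 5 of 61 and 1 of 15.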

How the data were processed

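The deposited files hold raw UMI counts per gene and barcode of 1 knockout and 1 wild type library, as the values show (whole numbers, at least 500 UMIs a barcode). Cell Ranger, Seurat 4.0 and R 4.0.2 are named per the submitters' processing notes, with no role; the sources used here name no aligner, genome build or annotation. Of 25880 genes, 8256 were listed by Ensembl ID only, and 1029 of these took a symbol from a gene-name table.

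The members and gene lists were chosen with earlier results of these data known, and the sets of comparison nuclei were written after the data were seen. UMIs were summed over members; genes with at least 20 UMIs were compared, and 2-fold was the mark. With 1 library a genotype no test across samples was possible. Named were the rule genes, the 15 genes with symbols of highest and lowest ratio (at least 50 UMIs), the 25 most raised over other nuclei in both libraries (UMIs in at least 10% of members), the most abundant list members and those past 2-fold, the 10 leading genes of each sub-cluster and other cell types' markers in 10% of members; the text gives the main ones, and a few of them are not reported here. Sub-clusters came from Leiden clustering (resolution 0.5, 1000 variable genes, 10 components, 15 neighbours). Ratios against a library with no UMI used a floor of 3 counts. Shares were thinned to 1000 UMIs a nucleus. Doublets were kept, since the threshold of Scrublet itself marked 1 of 6054 knockout and 3 of 4715 wild type nuclei; without the 293 and 178 nuclei of highest score was an alternative. Alternatives changed the rule, the filters, the scaling (TMM, means over nuclei) and the weight of the sub-clusters; sub-clusters 1 and 2 alone were added after seeing the data. Python 3.11.15, scanpy 1.11.5, leidenalg 0.10.2, scipy 1.17.1 and edgeR 4.0.16 (TMM only) were used, and the steps were tested on simulated data.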

Additional observations from a re-analysis of the deposited data

Results flagged for a closer look

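MYO3A, a class III myosin high in members of both libraries (420 CPM in knockout and 344 in wild type members, against 60.0 and 38.0 in the other nuclei), had ratios of opposite sign in the 2 main sub-clusters. In sub-cluster 1 it had 1479 CPM in knockout and 579 in wild type nuclei (121 and 131 UMIs), a log2 ratio of 1.35 (0.98 to 1.72). In sub-cluster 2 it had 89.98 and 345 CPM (13 UMIs in each library), a log2 ratio of -1.94 (-3.16 to -0.71). Over both sub-clusters the log2 ratio was 0.12. With 1 library a genotype the difference between the sub-clusters was not tested. MYO3A was 1 of 26 named genes with at least 20 UMIs in each sub-cluster for which the sign was compared.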

How the results depend on the processing

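No paired analysis was possible because each genotype has 1 library, and for the same reason no library could be left out. The knockout-higher count of genes past 2-fold, 554, was 171 with at least 50 UMIs a gene and 1415 with no filter; the knockout-lower count, 420, was 172 and 1122, and the count over other nuclei, 310, was 202 and 1581, since the filters change how many genes are compared. The knockout-lower count was 640 as a mean over nuclei and 649 with equal weight of the sub-clusters; the cause was not tested. TMM gave 390 higher and 563 lower. CFTR kept its direction, with log2 ratios between -5.27 (equal weight) and -2.67 (no exclusion gene). The log2 ratio of the proliferating share was 0.20 with 1 gene required, -0.21 without thinning and 2.21 in sub-clusters 1 and 2 alone, and requiring 3 genes gave no value. The share of members in sub-clusters 1 and 2 alone had a log2 ratio of -0.14. Of 117 named or listed genes past 2-fold, 66 fell under 2-fold or changed sign in at least 1 alternative: 34 with equal weight, 27 in sub-clusters 1 and 2 alone, 25 with no exclusion gene, 19 with at least 3 basal genes and 6 to 15 in the other alternatives. Ratios that changed sign were ITGB4 (-0.14) and MMP2 (0.37) with equal weight, ST6GALNAC5 (1.72) with at least 3 basal genes, GPR155 (-0.40), KIF23 (-0.61), DIAPH3 (-0.023), MX2 (-0.83), PURG (0.24), DNAH9 (-0.93) and CFAP54 (-0.97) with no exclusion gene, and SLCO1A2 (0.22), ELF5 (0.81), the carboxypeptidase gene CPM (0.64) and BPIFB4 (2.92) in sub-clusters 1 and 2 alone. Under equal weight the median of the proliferation core list was 0.63 and that of the inflammatory list 0.58.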
